A study of Mus musculus with 6 samples.

Results

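The collagen genes of the mouse were followed here in newborn retina, in animals with a conditional deletion of the transcription factor gene Zeb2 and in controls. Members were taken by name: every gene symbol made of Col, a type number, the letter a and a chain number. 44 of the 20175 genes in the table carried such a symbol, and 40 of them reached a mean of at least 10 normalised counts over the 6 libraries, among 16064 genes that did so. These 40 held 11 of 11 fibrillar chains, 8 of 8 basement membrane chains and 21 of 25 chains of other types.

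Collagens are secreted or membrane-bound proteins whose chains wind into trimers, and each gene encodes a single chain of its type. Fibrillar collagens form the fibres of connective tissue, cartilage and the vitreous, type IV collagens form the sheet of every basement membrane, and the remaining types coat fibrils, build fine filaments or anchor cells. In the eye, type II and type IX collagen are known from the vitreous, type IV collagen from the inner limiting membrane, the lens capsule and the vessels, and types I and III from the fibroblasts of sclera, choroid and cornea.

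Whole retinas were taken on postnatal day 2 (P2), and polyadenylated RNA was sequenced. The mutant group held 3 samples with loxP-flanked alleles of Zeb2 in the homozygous state and the αCre driver, a Cre known to act in progenitors of the peripheral retina. The control group held 3 samples labelled only as control. The labels do not state their genotype, the strain, or whether samples pooled several animals or came from different ones. The p-values therefore reflect only how much these 6 samples vary.

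The 6 libraries held 26041200 to 32614805 reads on genes. All 12 retinal genes used to check the tissue label were detected, with summed levels of 132183 to 138888 normalised counts in the mutants and 134060 to 136870 in the controls. Zeb2 had 5581.4, 4273.6 and 5049.7 normalised counts in the mutants, below the 5989.7, 6448.7 and 5916.7 in the controls, without being called (limma adjusted p = 0.129). Counts per whole gene in whole retina do not measure how far the loxP-flanked part was deleted. In bulk tissue, fewer cells of a type and less RNA per cell cannot be told apart.

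Per length, the collagen RNA of the P2 retina was mostly that of type II and type IX, the vitreous fibril types, together with type VI, type XXIII, type XVIII and type IV. Levels per kilobase (normalised counts divided by the merged exon length in GENCODE M21) were highest for Col2a1, the single chain of type II, at 1284 in the mutants and 1431 in the controls. Col6a1 followed at 1001 in the mutants and 523 in the controls, then Col9a3 at 629 in the mutants and 495 in the controls, Col23a1 at 482 in the mutants and 612 in the controls, and Col9a1 at 426 in the mutants and 558 in the controls. Levels then ran down over 3 orders of magnitude to Col6a6, at 0.629 in the mutants and 0.575 in the controls. Summed over all 44 genes, the collagen level per kilobase was 6194, 6401 and 5599 in the mutants and 5126, 6521 and 5211 in the controls, so the groups overlapped.

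**Figure D1:**
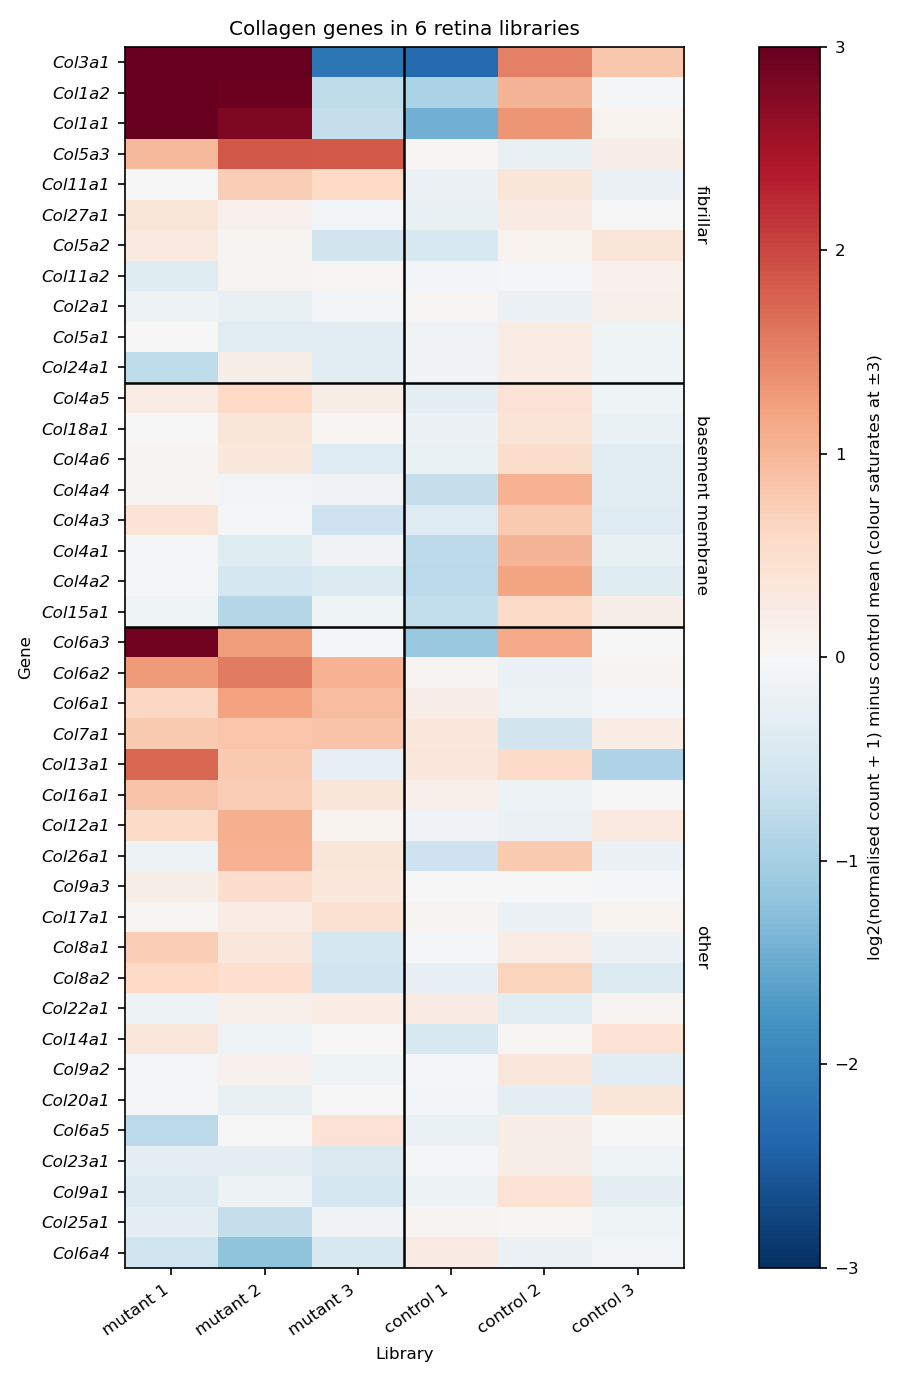
Levels of the 40 collagen genes (rows, by class and then by fold change) in the 3 mutant and 3 control libraries (columns), as the difference of log2(normalised count + 1) from the mean of the controls, with colour saturating at 3 either way. Col6a1, Col6a2 and Col5a3 are above the controls in all 3 mutant libraries, Col1a1, Col1a2 and Col3a1 in mutants 1 and 2 only, and the type IV chains stand highest in control 2 for 5 of 6 genes.

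Between mutant and control retinas, 3 collagen genes rose in the mutants: Col6a1 and Col6a2, which encode chains that pair in type VI collagen, the beaded filaments found around cells, and Col5a3, a minor chain of the fibril-regulating type V collagen. Col6a2 was 2.45-fold, Col6a1 1.90-fold and Col5a3 2.95-fold higher on the log2(value + 1) scale of the test. No member fell by this test. The 3 calls are 7.5% of the 40 members, against 1.15% of all genes tested (limma with Benjamini-Hochberg adjustment over all 16064 genes, 0.928% higher and 0.218% lower). By class, 1 of 11 fibrillar genes, 0 of 8 basement membrane genes and 2 of 21 others were called, and of the type VI genes 2 of 5. The median log2 fold change was 0.11 over the 40 members, with 23 positive and 17 negative, and 0.13, -0.065 and 0.19 over the fibrillar, basement membrane and other members, beside -0.0067 over all genes tested. Leaving out 1 library took the basement membrane median to between -0.34 (without control 1) and 0.31 (without control 2), the fibrillar median to between 0.021 (without control 1) and 0.26 (without control 2), and that of the others to between 0.11 and 0.35. Without mutants 1 and 2 the fibrillar median was -0.30.

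Col6a2 (ENSMUSG00000020241, GRCm38 chromosome 10, 76595762 to 76623630, minus strand) had 769.3, 926.9 and 649.0 normalised counts in the mutants, against 333.3, 280.1 and 334.3 in the controls. The lowest mutant stood well above the highest control. The means were 782 ± 139 in the mutants and 316 ± 31.0 in the controls (SD, n = 3 each), a log2 fold change of 1.29 ± 0.133 (SE, limma adjusted p = 0.00637). Of the 3 calls, Col6a2 was the only one made under all 16 alternative settings, with adjusted p from 1.07e-16 to 0.0422 and a log2 fold change from 1.04 to 1.42.

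Col6a1 (ENSMUSG00000001119, chromosome 10, 76708792 to 76726168, minus strand) lies 85161 bases away on the same strand. Its normalised counts were 3514.5, 5282.7 and 4361.1 in the mutants, against 2603.5, 2054.1 and 2210.3 in the controls. All 3 mutants lay above all 3 controls, with means of 4386 ± 884 in the mutants and 2289 ± 283 in the controls (SD, n = 3 each), a log2 fold change of 0.93 ± 0.140 (SE, limma adjusted p = 0.0240). The call was lost without mutant 2 or 3, at adjusted p = 0.0611 and 0.0711, and without control 1, 2 or 3, at 0.0737, 0.0550 and 0.0611 (limma), while the log2 fold change stayed between 0.78 and 1.07 and the adjusted p between 0.000251 and 0.0737 over the 16 alternatives. The ratio of Col6a1 to Col6a2 was 4.57, 5.70 and 6.72 in the mutants and 7.81, 7.33 and 6.61 in the controls.

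Col5a3 (ENSMUSG00000004098, chromosome 9, 20770050 to 20815067, minus strand) was a low gene. Its normalised counts were 83.5, 155.8 and 151.3 in the mutants, against 42.6, 35.7 and 48.2 in the controls. These rest on 79, 161 and 149 reads in the mutants and 40, 34 and 57 in the controls. Mutant 1 stood nearest to the controls but did not overlap with them. The log2 fold change was 1.56 ± 0.258 (SE, limma adjusted p = 0.0309), and the call was lost without mutant 2 or 3, at adjusted p = 0.130 and 0.0950, and without control 1, 2 or 3, at 0.137, 0.0722 and 0.0580 (limma). Over the 16 alternatives its adjusted p ran from 1.21e-05 to 0.137.

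The promoters of these 3 genes are shown because they are the members that passed the test. The sequences are from RefSeq (GRCm38.p6, all on the minus strand) and run 5′ to 3′ up to the base before the annotated start. They cover chr10:76623631-76623880 for Col6a2, chr9:20815068-20815317 for Col5a3 and chr10:76726169-76726294 for Col6a1, whose window is cut to 126 bases because the other 124 lie inside the GENCODE transcript. Capitals mark GGGCGG, the core of a GC box, and CCAAT, the box bound by NF-Y, on either strand.
Col6a2: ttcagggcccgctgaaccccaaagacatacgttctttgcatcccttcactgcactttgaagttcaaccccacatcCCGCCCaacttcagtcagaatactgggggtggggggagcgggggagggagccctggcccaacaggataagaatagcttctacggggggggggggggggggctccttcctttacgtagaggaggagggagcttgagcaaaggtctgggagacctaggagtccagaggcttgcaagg
Col6a1: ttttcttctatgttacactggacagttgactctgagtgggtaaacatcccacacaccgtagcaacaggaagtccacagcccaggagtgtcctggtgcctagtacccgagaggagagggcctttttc
Col5a3: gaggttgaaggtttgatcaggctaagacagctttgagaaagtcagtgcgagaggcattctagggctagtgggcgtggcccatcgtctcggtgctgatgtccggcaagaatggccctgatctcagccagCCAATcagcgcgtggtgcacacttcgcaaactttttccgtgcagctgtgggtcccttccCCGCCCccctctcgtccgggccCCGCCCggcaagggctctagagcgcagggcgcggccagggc

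Among the 250 bases before the RefSeq start, CACCT, the core letters that Zeb2 is known to bind, stood on either strand in 14 of the 31 tested collagen genes with an entry, or 45.2%, beside 46.0% of all 32851 promoter entries. Of the 3 called genes only Col6a1 had it, in the part not printed. The longer CACCTG, which always holds a CACCT, stood in 4 of 31, or 12.9%, beside 17.2% of all. GGCGCC, a GC-rich element known from BMP-responsive Smad binding, stood in 12.9% beside 9.59%, and CCAAT in 38.7% beside 33.8%. GGGCGG stood in 20 of 31 collagen promoters, or 64.5%, beside 32.7% of all. Col5a3 had 2 matches to GGGCGG and 1 to CCAAT, and Col6a2 had 1 match to GGGCGG. These are letter matches only, in a set chosen by name. The collagen shares take 1 entry per tested gene, that nearest to the GENCODE start, while the shares of all take every entry of every gene. Of the 31 collagen entries, 22 start within 50 bases of the GENCODE start, and that of Col25a1 starts 49344 bases from it.

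The other type VI genes were not called. Col6a3, whose product joins theirs in the classical type VI trimer, had 155.3, 49.3 and 19.3 normalised counts in the mutants and 8.5, 45.1 and 20.3 in the controls, with mutant 3 inside the control range (log2 fold change 1.37 ± 0.758 SE, limma adjusted p = 0.398). Col6a4, which encodes an alternative chain thought to take the place of the Col6a3 product, had 83.5, 55.1 and 92.4 in the mutants, below the 152.3, 113.3 and 120.2 in the controls, without passing the test (log2 fold change -0.75 ± 0.218 SE, limma adjusted p = 0.127). Another alternative chain gene, Col6a5, lay just above the level threshold at 9.5, 17.4 and 23.4 in the mutants and 14.9, 19.9 and 16.9 in the controls. Col6a6 lay under it at 6.3, 2.9 and 8.1 in the mutants and 4.3, 7.3 and 4.2 in the controls. Col6a1 and Col6a2 together gave 895, 1317 and 1074 counts per kilobase in the mutants and 634, 503 and 545 in the controls, or 14.4%, 20.6% and 19.2% of all collagen in the mutants and 12.4%, 7.71% and 10.5% in the controls.

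**Figure D2:**
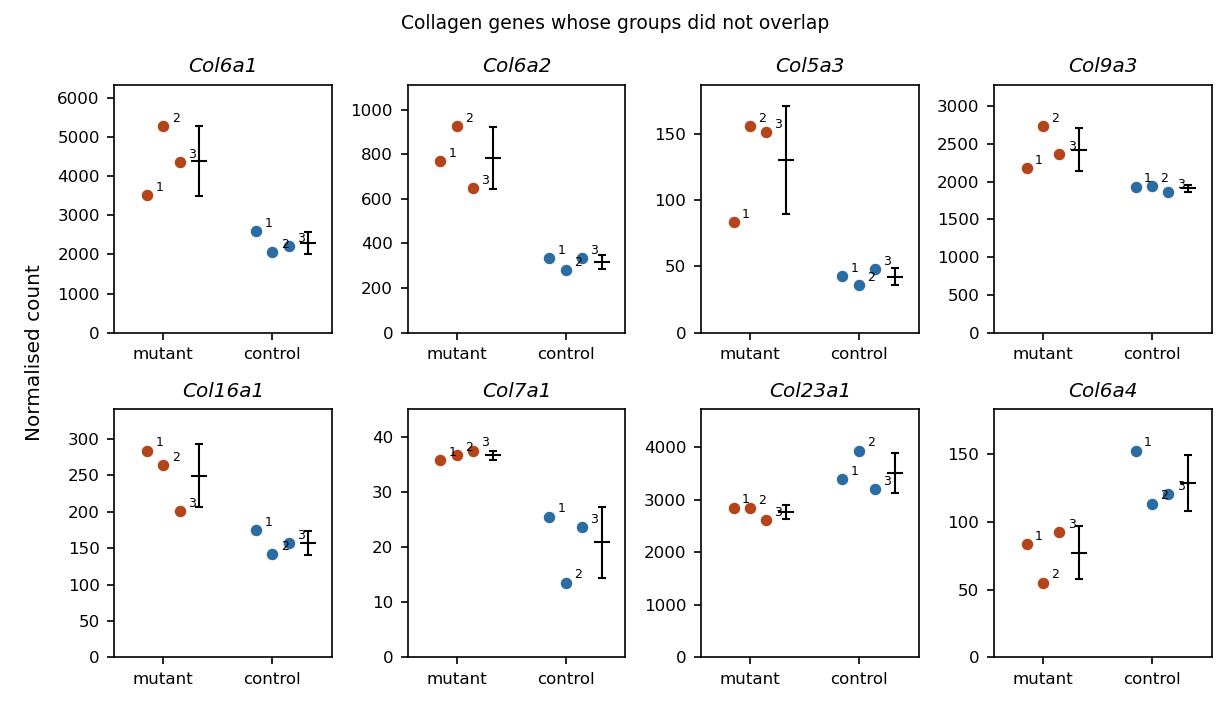
Normalised counts per library of the 8 collagen genes whose mutant and control values did not overlap, with libraries numbered and black bars giving the mean ± SD of each group (n = 3). The counts of Col6a1, Col6a2 and Col5a3 passed the test across all genes, while Col9a3, Col16a1 and Col7a1, higher in the mutants, and Col23a1 and Col6a4, lower in the mutants, did not.

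Mutant and control values did not overlap for 8 of the 40 members, or 20%, against 23.2% of all genes tested, so the share was near the background. They were higher in the mutants for 6 members (background 11.5% of all genes) and lower for 2 (background 11.7%). 8 members had an unadjusted limma p under 0.05, or 20%, against 17.3% of all genes. Beyond the called genes and Col6a4, the separated genes were Col9a3, Col16a1, Col7a1 and Col23a1.

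Col9a3 encodes a chain of type IX, which decorates the surface of type II fibrils. It had 2172.5, 2736.2 and 2361.3 normalised counts in the mutants and 1932.7, 1936.6 and 1855.7 in the controls, and missed the threshold (log2 fold change 0.34 ± 0.079 SE, limma adjusted p = 0.0827). Its exons share 234 bases with those of Tcfl5 on the opposite strand, a gene with a mean of 89.7 normalised counts, and no source used here says whether reads were counted by strand. The other type IX chains did not separate. Col9a1 had 2073.2, 2493.3 and 1906.3 in the mutants and 2486.4, 3750.5 and 2249.2 in the controls (log2 fold change -0.36, limma adjusted p = 0.337, and -0.14 without control 2), and Col9a2 had 832.7, 946.2 and 793.2 in the mutants and 845.5, 1103.6 and 700.7 in the controls. Their fibril partner Col2a1 had 11843.2, 11244.6 and 12503.4 in the mutants and 13413.8, 11674.1 and 14587.8 in the controls (log2 fold change -0.15 ± 0.082 SE, limma adjusted p = 0.381). Only control 2 fell within the range of the mutants.

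Col23a1, a transmembrane collagen and an abundant member, had 2847.7, 2834.9 and 2608.1 normalised counts in the mutants, all below the 3392.6, 3931.9 and 3205.4 in the controls (log2 fold change -0.34 ± 0.077 SE, limma adjusted p = 0.0770). Col16a1, a fibril-associated collagen, had 284.2, 264.1 and 201.1 in the mutants and 174.6, 141.6 and 157.4 in the controls (log2 fold change 0.65 ± 0.153 SE, limma adjusted p = 0.0837). Neither passed the test, and both separated without overlap. Col7a1, which builds the anchoring fibrils of epithelia, was low, at 35.9, 36.8 and 37.6 in the mutants and 25.6, 13.6 and 23.7 in the controls (log2 fold change 0.83 ± 0.276 SE, limma adjusted p = 0.171). DESeq2 on the recovered reads called 6 members, adding Col9a3, Col16a1 and Col23a1 in a fit that called 5.4% of all genes. For Col9a3 the DESeq2 adjusted p was 0.00326, within a range of 0.00326 to 0.250 over the alternatives, and for Col23a1 it was 0.00172, within 0.00172 to 0.227. edgeR called the same 3 members as limma, in a fit that called 1.12% of all genes.

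**Figure D3:**
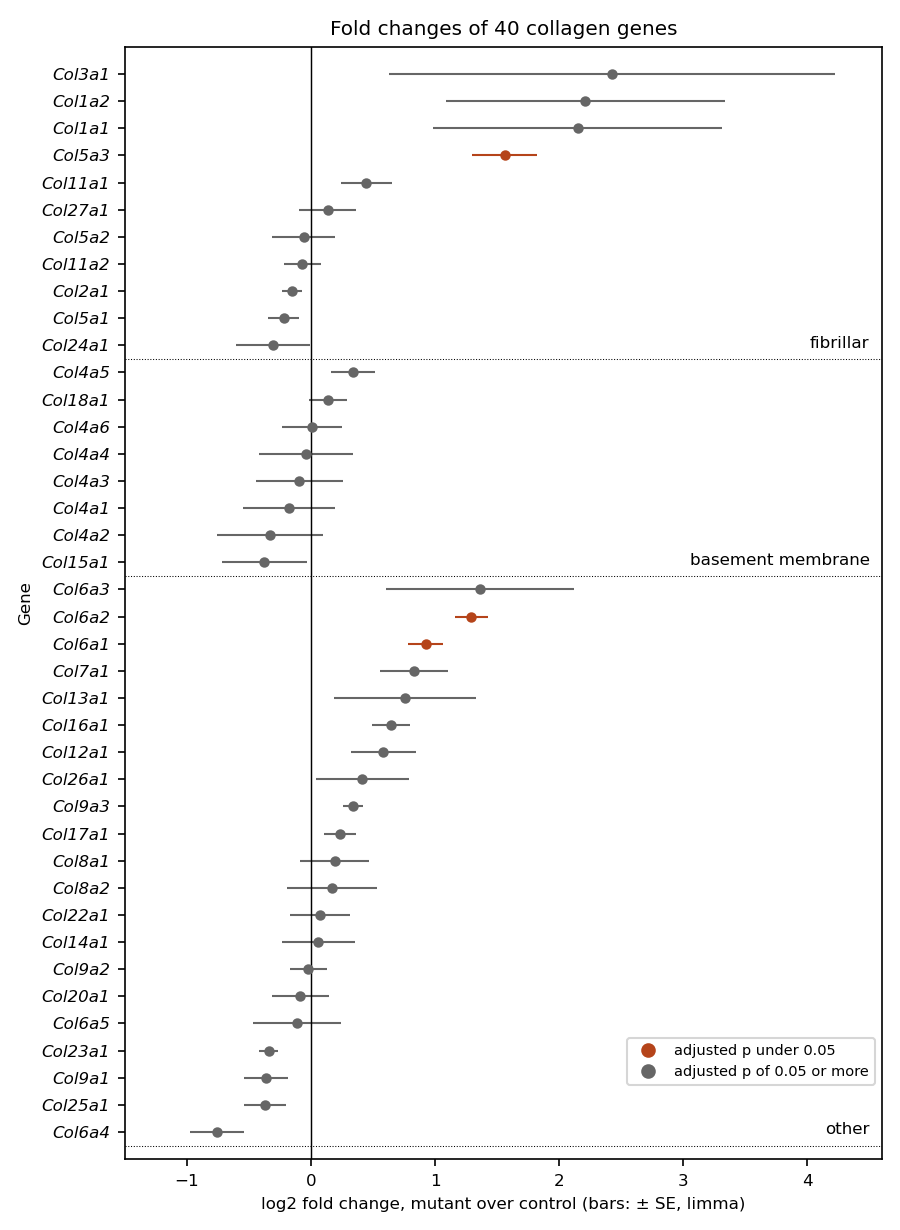
Log2 fold change of mutant over control for the 40 collagen genes by class, with horizontal bars giving ± 1 SE from limma and orange points those with an adjusted p under 0.05. Col3a1, Col1a2 and Col1a1 have the highest fold changes, at 2.42, 2.21 and 2.15, and the widest errors, from 1.12 to 1.80.

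The largest fold changes belonged to the interstitial collagens of fibroblasts, and they rested on mutants 1 and 2. Col1a1, which encodes the more abundant chain of type I collagen, had 2138.7, 724.7 and 62.0 normalised counts in the mutants and 37.3, 260.2 and 110.9 in the controls. Its partner chain gene Col1a2 had 2185.2, 779.8 and 58.9 in the mutants and 51.1, 203.5 and 95.6 in the controls. Col3a1, the single chain of type III, had 1510.0, 460.5 and 6.1 in the mutants and 5.3, 90.2 and 55.0 in the controls. In each of these genes mutants 1 and 2 stood above every control, and mutant 3 stood below controls 2 and 3. Among the other tested members, mutants 1 and 2 but not mutant 3 were above every control for Col6a3, Col8a1, Col12a1 and Col13a1. Log2 fold changes were 2.15 ± 1.16, 2.21 ± 1.12 and 2.42 ± 1.80 (SE), and none passed the test (limma adjusted p = 0.387, 0.357 and 0.539). With mutants 1 and 2 left out, the log2 fold changes were -0.72, -0.75 and -2.16.

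Per kilobase, Col1a1, Col1a2 and Col3a1 together made up 10.6%, 3.44% and 0.264% of all collagen in the mutants and 0.202%, 1.00% and 0.579% in the controls. The ratio of Col3a1 to Col5a2, which lies 24614 bases away on the opposite strand and encodes a chain of the mixed type I and V fibrils, was 3.73, 1.32 and 0.0273 in the mutants and 0.0221, 0.257 and 0.131 in the controls. Col5a2 itself had 404.7, 348.3 and 223.4 in the mutants and 239.6, 351.4 and 421.4 in the controls, and its partner Col5a1 had 603.4, 481.8 and 482.4 in the mutants and 558.0, 711.3 and 556.8 in the controls (log2 fold changes -0.057 and -0.22, limma adjusted p = 0.933 and 0.416). These chains showed no such excess in mutants 1 and 2.

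Many mesenchyme markers, and part of the astrocyte markers, were also high in mutants 1 and 2 and in the range of the controls in mutant 3. Of 15 mesenchyme and fibroblast markers, 10 were tested, 0 were called, and 13 were highest in mutant 1. Over all genes tested, 1.15% were called and 12.1% were highest in mutant 1. Without Pdgfra, which astrocytes express as well, the list summed to 1160, 647 and 173 normalised counts in the mutants and 150, 384 and 210 in the controls. Dcn, a small proteoglycan on type I fibrils, had 285.3, 143.2 and 1.0 in the mutants and 1.1, 18.9 and 5.9 in the controls. Lum, its relative lumican, had 70.8, 30.0 and 0 in the mutants and 0, 6.3 and 2.5 in the controls, and Tbx18 was likewise at 0 in mutant 3 and control 1, where a count of 0 allows up to 3 reads. Postn, a matrix protein of fibroblasts, had 280.0, 99.7 and 28.4 in the mutants and 12.8, 28.3 and 27.1 in the controls. Of 6 astrocyte markers 0 were called, and the list summed to 7699, 6022 and 2331 in the mutants and 1931, 2088 and 2601 in the controls, or 2569, 2249.6 and 2096 in the mutants and 1787, 1852 and 2134 in the controls without Gfap. Gfap, the intermediate filament of astrocytes, had 5130.2, 3772.4 and 234.6 in the mutants and 143.8, 236.0 and 466.3 in the controls. S100b, a calcium-binding protein of glia, had 361.4, 251.6 and 79.2 in the mutants and 52.2, 96.5 and 88.9 in the controls, and the water channel gene Aqp4 had 89.8, 130.6 and 19.3 in the mutants and 17.0, 39.9 and 20.3 in the controls. The other astrocyte markers had another order: Pax2 and Aldh1l1 were above every control in all 3 mutants, and Pdgfra overlapped at 1681.2, 1374.9 and 1570.2 in the mutants and 1452.4, 1393.2 and 1678.9 in the controls. Their part in the levels of the interstitial collagens was not tested.

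**Figure D4:**
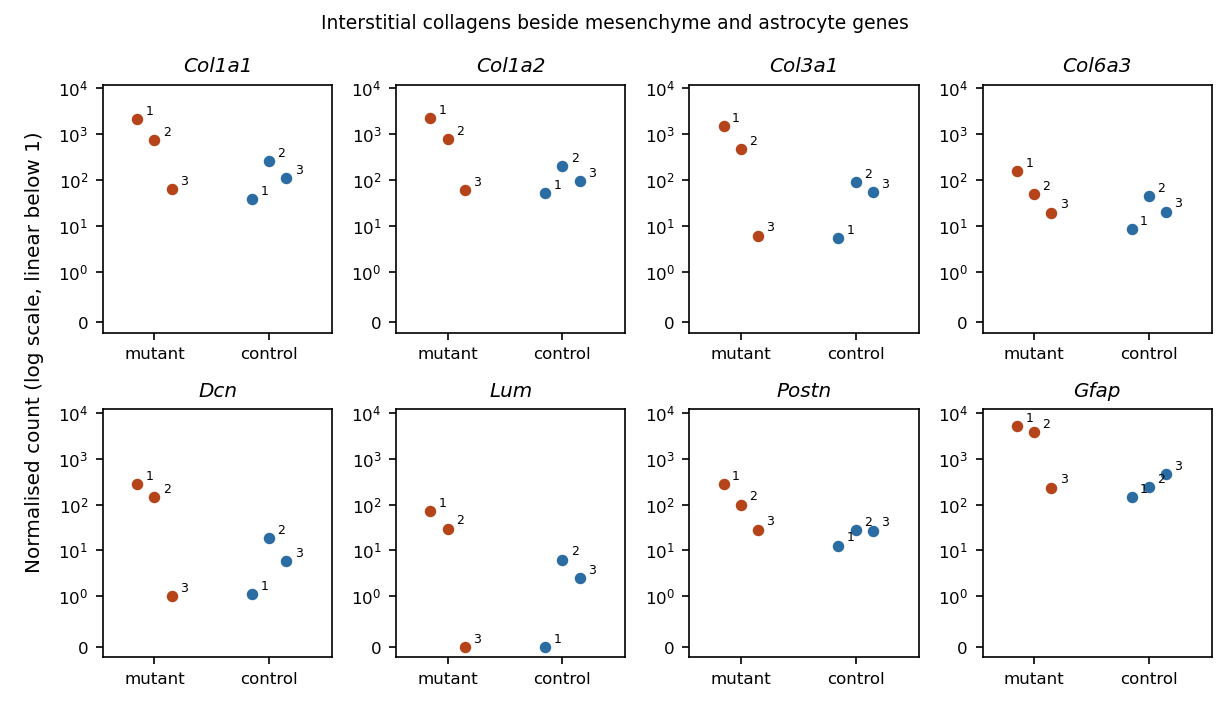
Normalised counts per numbered library (log axis, linear below 1) of the interstitial collagen genes Col1a1, Col1a2, Col3a1 and Col6a3, the mesenchyme genes Dcn, Lum and Postn and the astrocyte gene Gfap. In all 8 panels mutants 1 and 2 are above the 3 controls and mutant 3 lies within the range of the controls, apart from Dcn and Postn, where mutant 3 is just outside it.

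Col6a1, Col6a2 and Col5a3 did not follow that order. In mutant 3, where Col1a1 had 62.0 normalised counts, Col6a2 had 649.0 and Col6a1 4361.1, above every control. With mutants 1 and 2 left out, the log2 fold changes were 1.04 for Col6a2, 0.94 for Col6a1 and 1.83 for Col5a3. A fit with 1 mutant library cannot measure how the mutants vary. Mutant 3 was also among the libraries that gave the 3 calls, so these values are no separate evidence for them. Pericytes and smooth muscle are known to express type VI collagen. Of 10 markers of these cells 0 were called, against 1.15% of all genes, so 0 calls in a list this short say little. The list summed to 1620, 1670 and 1583 in the mutants and 1332, 1872 and 1523 in the controls. Much of this sum was Notch3, a receptor of mural cells and of other cells, which had 796.7, 1069.1 and 827.7 in the mutants, above the 726.2, 671.4 and 603.3 in the controls (limma adjusted p = 0.119). Without it the list summed to 823, 601 and 756 in the mutants and 606, 1200.2 and 919.7 in the controls. Of the 6 astrocyte markers, only Pax2 and Aldh1l1 were above every control in each mutant as well, as were 11.5% of all genes tested. Gfap, S100b, Aqp4 and Pdgfra overlapped between the groups. Pax2 had 363.5, 372.5 and 351.4 in the mutants and 227.9, 269.6 and 286.9 in the controls (limma adjusted p = 0.0748), and Aldh1l1 had 72.9, 120.0 and 76.2 in the mutants and 37.3, 52.5 and 59.2 in the controls (limma adjusted p = 0.144). The part of these cells in the levels of Col6a1, Col6a2 and Col5a3 was not tested.

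The basement membrane collagens did not differ between the groups by the test, and 1 control library stood apart from the rest. Col4a1 and Col4a2 encode the chains of the common type IV network. Col4a1 had 2114.4, 1681.6 and 2009.9 normalised counts in the mutants and 1260.8, 4380.9 and 1870.1 in the controls (log2 fold change -0.18 ± 0.370 SE, limma adjusted p = 0.851). Col4a2 had 1657.9, 1192.0 and 1282.7 in the mutants and 972.2, 3869.0 and 1337.9 in the controls (log2 fold change -0.33 ± 0.424 SE, limma adjusted p = 0.744). In control 2 Col4a1 was 2.80-fold and Col4a2 3.35-fold above the mean of the other two controls. Without control 2, the log2 fold changes were 0.33 and 0.26, with the sign turned and still not called.

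Of the chains of the more restricted type IV networks, Col4a3, Col4a4 and Col4a6 were also highest in control 2, and Col4a5 was highest in mutant 2. Col4a3 had 188.1, 134.5 and 91.4 in the mutants and 107.5, 242.3 and 107.5 in the controls, and Col4a4 had 154.3, 136.4 and 135.1 in the mutants and 88.4, 300.0 and 115.9 in the controls. Their log2 fold changes were -0.092 and -0.038, and 0.30 and 0.48 without control 2. Col4a5 had 983.8, 1264.6 and 962.8 in the mutants and 679.4, 1130.9 and 769.2 in the controls, and Col4a6 had 485.0, 566.0 and 350.4 in the mutants and 399.3, 657.8 and 358.8 in the controls (limma adjusted p = 0.378 and 0.989). The type IV genes lie in head-to-head pairs: Col4a1 and Col4a2 share 22 exon bases on opposite strands of chromosome 8, Col4a3 and Col4a4 lie 71 bases apart on chromosome 1, and Col4a5 and Col4a6 lie 1308 bases apart on chromosome X. The ratio of Col4a1 to Col4a2 was 1.28, 1.41 and 1.57 in the mutants and 1.30, 1.13 and 1.40 in the controls, although both levels varied over 3-fold among the controls. The ratio of Col4a5 to Col4a6 was 2.03, 2.23 and 2.75 in the mutants and 1.70, 1.72 and 2.14 in the controls.

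Col18a1 and Col15a1 encode the basement membrane proteoglycan collagens, and the end fragment of the Col18a1 product is endostatin. Col18a1 had 2330.0, 2980.0 and 2416.2 in the mutants and 2061.5, 3027.6 and 2013.1 in the controls (log2 fold change 0.14, limma adjusted p = 0.700), and leaving out 1 library gave log2 fold changes of 0.029 (without mutant 2) to 0.33 (without control 2). Col15a1 had 86.6, 52.2 and 87.3 in the mutants and 56.4, 141.6 and 108.3 in the controls (log2 fold change -0.37, limma adjusted p = 0.625), and leaving out 1 library gave -0.75 (without control 1) to -0.091 (without control 2). The groups overlapped for both. Control 2 was the highest library for 7 of 8 basement membrane collagens, or 87.5%, for 13 of all 40 collagens, or 32.5%, and for 16.9% of all genes tested.

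Other basement membrane and eye genes stood high in the same control library. Among 14 tested laminin, nidogen and proteoglycan genes, control 2 was highest for 8. Nid1, which links laminin to type IV collagen, had 594.9, 336.7 and 262.0 in the mutants and 182.1, 1690.1 and 297.9 in the controls, and Hspg2, which encodes perlecan, had 1053.5, 790.5 and 882.6 in the mutants and 1059.5, 2868.2 and 914.8 in the controls. The 8 ciliary margin markers, 0 of them called, summed to 4009, 4934 and 3413 in the mutants and 2985, 6727 and 2905 in the controls. Of these markers, 6 were highest in control 2. The other 2, Zic1 and Cdo1, were highest in mutant 2 and stood above every control in all 3 mutants. Wfdc1, a gene of that margin, had 34.9, 19.4 and 16.3 in the mutants and 42.6, 275.9 and 18.6 in the controls. Lens markers, 0 of 9 called and 9 of 10 highest in control 2, summed to 1091, 812 and 3740 in the mutants and 1295, 9281 and 2903 in the controls, with Lim2 at 0 in every library. Endothelial markers, 0 of 10 called, summed to 18233 to 20399 in the mutants and 18976 to 21548 in the controls, nearly all of it Kdr, a gene that retinal progenitors express as well. Without Kdr the list summed to 1534, 895 and 1192 in the mutants and 1137, 1693 and 1443 in the controls, and 6 of these 9 genes were highest in control 2. Pigment cell markers, 0 of 9 called, summed to 3976, 3891 and 2020 in the mutants and 2269, 4065 and 2358.5 in the controls. These sums were higher in mutants 1 and 2 and control 2 than in the other libraries. Skeletal muscle markers, 0 of 5 called, summed to 438, 452 and 410 in the mutants and 461, 473 and 424 in the controls. Surface epithelium markers, 0 of 2 called, summed to 274, 207 and 203 in the mutants and 324, 306 and 249 in the controls, most of it Krt15. Trp63, a marker of that list under the level threshold, had 14.8, 20.3 and 13.2 in the mutants and 0, 0 and 1.7 in the controls. Over all genes tested 1.15% were called, so 0 calls in lists this short say little. The part of all these cells in the type IV levels was not tested.

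**Figure D5:**
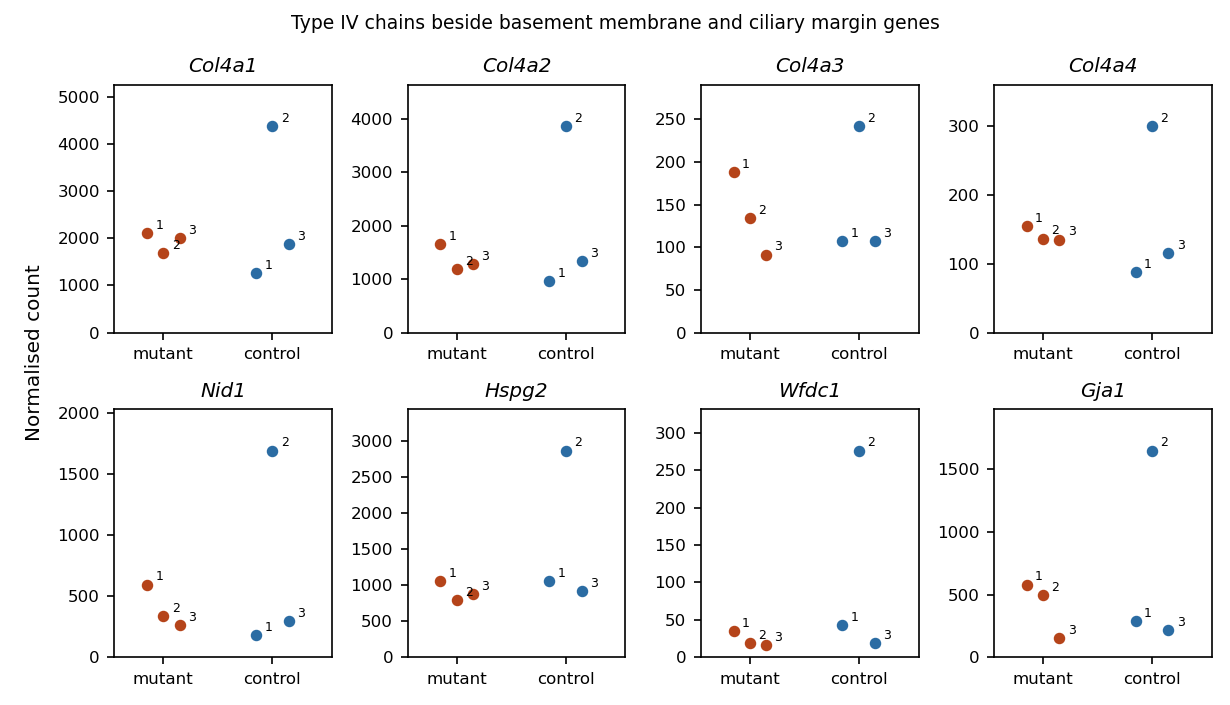
Normalised counts per numbered library of Col4a1 to Col4a4 (top) and of the basement membrane genes Nid1 and Hspg2 and the ciliary margin genes Wfdc1 and Gja1 (bottom), for mutants and controls. Control 2 is the highest library in all 8 panels, and among the other 5 libraries the mutants overlap with the controls in every panel but that of Col4a4, where the 3 mutants lie higher.

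The remaining fibrillar members did not pass the test, and of these Col24a1 and Col27a1 were low. Col11a1, the type XI chain that seeds type II fibrils, had 336.0, 548.6 and 501.7 normalised counts in the mutants and 295.0, 422.8 and 291.1 in the controls (log2 fold change 0.45, limma adjusted p = 0.304). Col11a2 had 142.7, 196.4 and 193.0 in the mutants and 173.6, 177.3 and 203.1 in the controls. Col24a1 and Col27a1, the fibrillar chains with shortened helices, ranged over 13.7 to 27.1 and 30.5 to 42.3 in the mutants, and over 22.0 to 28.3 and 27.7 to 38.8 in the controls. All 4 overlapped between the groups. Of 8 cartilage markers 3 were tested and 0 called, against 1.15% of all genes. The list summed to 634, 575 and 686 in the mutants and 521, 522 and 607 in the controls. Most of it was Sox5, which neurons express as well. Acan, the cartilage proteoglycan gene, had 0, 25.2 and 9.1 in the mutants and 10.6, 5.2 and 5.9 in the controls.

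Among the other types, Col8a1 and Col8a2 encode the short-chain network collagen of Descemet's membrane and vessel walls. Col8a1 had 743.9, 566.0 and 308.8 in the mutants and 432.3, 515.1 and 391.8 in the controls, and Col8a2 had 164.8, 153.8 and 72.1 in the mutants and 91.6, 172.0 and 81.2 in the controls. Mutant 3 was the lowest of all libraries for both genes. Col17a1, the transmembrane collagen of hemidesmosomes, had 310.7, 354.1 and 417.4 in the mutants and 321.6, 268.6 and 327.5 in the controls (log2 fold change 0.23, limma adjusted p = 0.402). Col25a1, a neuronal transmembrane collagen, had 120.5, 90.0 and 137.1 in the mutants and 156.5, 152.1 and 135.4 in the controls (log2 fold change -0.37, limma adjusted p = 0.315). The groups overlapped for Col17a1 and Col25a1, and also for Col26a1, with 254.7, 584.4 and 365.6 in the mutants and 185.3, 491.0 and 251.3 in the controls. Col12a1, a fibril-associated collagen, had 67.6, 94.8 and 48.8 in the mutants and 41.5, 39.9 and 55.0 in the controls. Col14a1, Col20a1 and Col22a1 ranged over 20.3 to 37.6 in the mutants and 16.0 to 48.2 in the controls, and none of the 3 separated. Col20a1 shares 79 of its 5142 exon bases with BX649560.1 on the same strand, so reads in that stretch may belong to either.

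The members nearest to the level threshold of 10 were Col13a1, a transmembrane collagen, and Col6a5 above it, and Col10a1 and Col19a1 below it. Col13a1 had 26.4, 13.5 and 6.1 normalised counts in the mutants and 9.6, 11.5 and 3.4 in the controls. Col10a1, known from hypertrophic cartilage, had 16.9, 11.6 and 5.1 in the mutants and 4.3, 11.5 and 8.5 in the controls, and 18 of its exon bases overlap with those of Nt5dc1 on the opposite strand. Col19a1 had 3.2, 4.8 and 13.2 in the mutants and 10.6, 10.5 and 7.6 in the controls. Col28a1 lay lower, at 9.5, 6.8 and 5.1 in the mutants and 2.1, 3.1 and 8.5 in the controls. The values overlapped between the groups in each of these genes.

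The genes that make, bind and break down collagen were followed in 6 lists of 86 symbols, of which 74 were tested. limma called 0 of them, against 1.15% of all genes, with 8 at an unadjusted p under 0.05, and their median log2 fold change was 0.028. edgeR also called 0, and DESeq2 called 2, Mmp15 and Timp4. Of 20 genes of collagen folding and modification, 0 were called at a median of 0.018 (log2 fold change). P4hb, the disulphide isomerase that doubles as a subunit of prolyl hydroxylase, had 11014.8, 11663.5 and 10770.7 in the mutants and 10900.8, 10884.2 and 10824.7 in the controls. Serpinh1, the collagen chaperone HSP47, had 5674.4, 5885.5 and 5721.0 in the mutants and 4557.5, 6244.1 and 5669.6 in the controls. Both overlapped between the groups.

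Of 10 tested genes of propeptide cleavage and crosslinking, 0 were called at a median of 0.029. Bmp1, the procollagen C-proteinase, had 1130 ± 182 in the mutants and 1099.5 ± 94.6 in the controls, and the lysyl oxidase relative Loxl2 had 402 ± 132 in the mutants and 405 ± 66.8 in the controls (SD, n = 3 each). Of 9 tested collagen receptor genes, 0 were called at a median of 0.028. Ddr1, a collagen-binding receptor tyrosine kinase, had 19327 ± 939 in the mutants and 18946 ± 257 in the controls, and Itgb1, the shared beta subunit of collagen-binding integrins, had 5759 ± 110.0 in the mutants and 5859 ± 392 in the controls. The differences between the means were smaller than the SD of at least 1 group in each case.

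Of 14 tested basement membrane partners, 0 were called at a median of -0.089. Agrn, a heparan sulphate proteoglycan, had 11090.0 ± 1042 in the mutants and 10834 ± 375 in the controls, and the laminin chain gene Lamb2 had 1872 ± 291 in the mutants and 2013 ± 192 in the controls. Of 12 tested fibril-binding proteoglycan and glycoprotein genes, 0 were called at a median of 0.42, a list that holds Dcn and Lum. Fn1, fibronectin, had 6178 ± 555 in the mutants and 6179 ± 304 in the controls, and Prelp had 2389 ± 116 in the mutants and 2174 ± 635 in the controls.

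Of 9 tested collagenases and inhibitors, 0 were called at a median of 0.054. Mmp14, a membrane-bound collagenase, had 4432 ± 150 in the mutants and 4269 ± 187 in the controls (SD, n = 3 each). Mmp15, a related membrane-bound protease, had 2288.8, 2096.6 and 2224.2 in the mutants, below the 2847.4, 2511.5 and 2710.4 in the controls (log2 fold change -0.29 ± 0.060 SE, limma adjusted p = 0.0631). Timp4, an inhibitor of these proteases, had 37.0, 43.5 and 9.1 in the mutants, above the 5.3, 4.2 and 5.9 in the controls (limma adjusted p = 0.0997). Both separated without overlap and missed the threshold. Groups did not overlap for 9 of the 74 tested partner genes, or 12.2%, against 23.2% of all genes tested.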

How the data were processed

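Polyadenylated RNA of whole mouse retina on postnatal day 2 was sequenced in 3 Zeb2 mutant and 3 control samples, grouped by their titles. Per the submitters' processing notes, the build was GRCm38 and the tools included DESeq2, HTSeq, cutadapt and STAR 2.4.2a. Their roles are not stated there. The values deposited by the authors are a signal per gene and library, normalised counts rounded to 1 decimal. In every library 100% of values lay within 0.06 of whole multiples of 1 step, which gave back whole reads (26041200 to 32614805 per library). Replicates differed by more than sampling noise (chi-square per degree of freedom 7.47 to 13.8).

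From these values, a trended limma model (version 3.58.1, in R 4.3.3) was fitted to log2(normalised count + 1) of the 16064 genes averaging at least 10, with Benjamini-Hochberg adjustment over all of them and calls under 0.05, 2-sided. Folds on this scale understate the change of low genes. GENCODE M21 gave coordinates and merged exon lengths (20122 of 20175 IDs matched), and promoters came from RefSeq (31 of the 40 tested members matched). The members, the 6 partner lists and the 11 marker lists were chosen with earlier results of these data known. Named were the called members, the 4 highest per kilobase of each broad class, the 2 nearest the level threshold on either side, the 3 highest and 3 lowest by fold change among those averaging 50 or more, the members of neighbouring pairs, and the 2 most abundant genes of each partner list. Other collagen genes are given to complete the family, and further genes were chosen after their values were seen. Also tried were a pseudocount of 0.1 or 5, a filter at a mean of 50 or none at all, TMM and total scaling, edgeR 4.0.16 and DESeq2 1.42.0 on the recovered reads, a replicate block, and leaving out each library or mutants 1 and 2. The limma, edgeR and DESeq2 fits were first run on simulated data with known changes and no outlying library. The other settings were not simulated.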

Additional observations from a re-analysis of the deposited data

How the results depend on the processing

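Over all genes, limma called 184 (149 higher and 35 lower), DESeq2 868, and the fits that left out 1 library 27 to 600. Of the collagen genes, DESeq2 called 6 and these fits 1 to 4. With mutant 2, mutant 3 or any 1 control left out, Col6a2 was the only collagen call, and without mutant 1 Col9a3 was added. Of the partner genes, DESeq2 called 2, the fit with a replicate block 1 (Mmp15), and the fits without 1 library 0 to 1. Groups did not overlap for 9 to 16 collagen genes without 1 library, or 22.5% to 40% against 29.8% to 38.0% of all genes, and for 19 without mutants 1 and 2, or 47.5% against 64.4% of all genes. The median collagen log2 fold change lay between 0.032 and 0.30 without 1 library, highest without control 2, and at -0.10 without mutants 1 and 2. The non-overlap count was not recomputed for the pseudocounts, edgeR, DESeq2 or the block, which leave the values as they are.

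Without mutants 1 and 2, log2 fold changes turned to -0.72 for Col1a1, -0.75 for Col1a2, -2.16 for Col3a1, -0.23 for Col13a1, -0.38 for Col4a6 and 0.43 for Col6a5. Col4a6 also turned to -0.0081 with edgeR and -0.013 with DESeq2. The basement membrane median was -0.19 with edgeR and with DESeq2. Leaving out 1 library gave -0.57 to 0.33 for Col4a1, -0.74 to 0.26 for Col4a2, -0.34 to 0.30 for Col4a3, -0.39 to 0.48 for Col4a4, -0.16 to 0.28 for Col4a6, -0.28 to 0.19 for Col5a2 and -0.38 to 0.23 for Col6a5. None of these was called, and apart from the left-out libraries themselves the cause was not tested. Of the 24 named collagen genes tested, the direction of 13 was the same in all 16 alternatives.

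The replicate numbers showed no clear pairing of the samples: residuals of same-numbered libraries correlated at 0.016, 0.149 and -0.063. Mutants 1 and 2 correlated best with the control of their own number, and mutant 3 with control 1, at 0.220. The labels do not say whether any samples shared a litter or batch. With the replicate block, limma called 248 genes, 4 of them collagens (Col23a1 was added). Col9a3 and Col23a1 missed the threshold in the main comparison and were each called in 2 of the 16 alternatives, and low genes such as Col5a3 rest on as few as 34 reads in a library.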
